A study of Mus musculus with 2 samples.

Results

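Lymphatic-like endothelial cells of the E12.5 mouse embryo are described here from single-cell transcriptomes of CD31-sorted brain cells. They were 564 of the 27041 cell barcodes kept from both libraries, 265 of 13108 in the Foxq1iECKO library and 299 of 13933 in the Foxq1flox/flox library. Members were chosen by detected transcripts. A barcode was a member when it had a unique molecular identifier (UMI, a tag that marks 1 captured transcript) for at least 3 of 8 endothelial genes (Pecam1, Cdh5, Kdr, Flt1, Tek, Tie1, Esam, Egfl7), for at least 3 of 6 lymphatic genes (Prox1, Lyve1, Mmrn1, Reln, Pdpn, Ccl21a) and for at most 1 of the 3 macrophage genes C1qa, C1qb and C1qc. Kept barcodes had at least 1000 UMIs, at least 500 genes and at most 20% mitochondrial UMIs. The study asks about endothelial Foxq1, a forkhead transcription factor, in brain vessel growth and barrier formation. There was 1 library per genotype: Foxq1iECKO, an abbreviation that the labels do not spell out, in a series titled for endothelial Foxq1, and Foxq1flox/flox, whose label names the floxed alleles and no Cre. The Cre driver, its induction, the deleted stretch of Foxq1 and the number of embryos behind each library are not stated in the labels. Cells of both libraries had been enriched with CD31 microbeads, which bind the product of Pecam1.

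Lymphatic endothelium lines the vessels that return tissue fluid and immune cells to the blood. Its identity depends on Prox1, a homeobox transcription factor that in mouse is switched on in venous endothelium by Sox18 and Nr2f2. Growth and migration then follow the ligand VEGF-C, its receptor VEGFR-3 (Flt4) and the co-receptor neuropilin-2 (Nrp2). Lymphatic vessels of the head lie in skin and in the meninges around the brain, while brain tissue itself has none in the mouse, and meningeal lymphatics form mostly after birth. The labels do not state which head tissue was left on the collected brains.

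The starts of the genes around which the values below turn are shown first, as 300 bases of RefSeq sequence each (build GRCm38.p6), 250 before and 50 after the annotated start, read 5′ to 3′ along the gene. Prox1 is shown at both of its starts because it defines the cells, Mmrn1 because it was the marker most often detected in them, and Flt4 and Nts because they stood high in members without being part of the rule. Capitals mark a SOX core (AACAAT, 6 bases, either strand) or a forkhead core (TGTTTA, 6 bases, either strand), 2 motifs that do not overlap here. RefSeq promoters were found for 10 of the 12 genes looked up, and Lyve1 and Foxq1 had no entry.
Prox1 first start, chr1:190170778-190171077, minus strand: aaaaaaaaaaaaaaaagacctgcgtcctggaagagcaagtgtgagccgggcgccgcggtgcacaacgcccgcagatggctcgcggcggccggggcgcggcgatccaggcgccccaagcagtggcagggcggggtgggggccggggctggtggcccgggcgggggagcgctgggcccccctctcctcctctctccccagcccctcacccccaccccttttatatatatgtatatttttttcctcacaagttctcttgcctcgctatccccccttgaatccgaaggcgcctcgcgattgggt
Prox1 second start, chr1:190169466-190169765, minus strand: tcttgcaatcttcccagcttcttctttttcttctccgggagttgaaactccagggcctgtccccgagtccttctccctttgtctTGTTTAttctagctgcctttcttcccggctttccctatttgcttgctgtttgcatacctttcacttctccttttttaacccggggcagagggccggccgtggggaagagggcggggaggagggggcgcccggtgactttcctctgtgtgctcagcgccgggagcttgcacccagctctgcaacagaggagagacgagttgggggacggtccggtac
Mmrn1, chr6:60944067-60944366, plus strand: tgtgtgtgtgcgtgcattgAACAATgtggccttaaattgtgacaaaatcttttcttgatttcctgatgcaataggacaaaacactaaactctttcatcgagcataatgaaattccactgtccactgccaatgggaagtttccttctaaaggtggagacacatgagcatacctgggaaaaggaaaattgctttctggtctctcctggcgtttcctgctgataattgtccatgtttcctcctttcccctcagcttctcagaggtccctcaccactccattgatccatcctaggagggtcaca
Flt4, chr11:49609429-49609728, plus strand: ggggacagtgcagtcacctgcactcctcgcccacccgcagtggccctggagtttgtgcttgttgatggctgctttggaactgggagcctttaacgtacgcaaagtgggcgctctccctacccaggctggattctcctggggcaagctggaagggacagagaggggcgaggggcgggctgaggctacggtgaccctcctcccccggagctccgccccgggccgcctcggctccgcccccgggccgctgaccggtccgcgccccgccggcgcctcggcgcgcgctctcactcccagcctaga
Nts, chr10:102490369-102490668, minus strand: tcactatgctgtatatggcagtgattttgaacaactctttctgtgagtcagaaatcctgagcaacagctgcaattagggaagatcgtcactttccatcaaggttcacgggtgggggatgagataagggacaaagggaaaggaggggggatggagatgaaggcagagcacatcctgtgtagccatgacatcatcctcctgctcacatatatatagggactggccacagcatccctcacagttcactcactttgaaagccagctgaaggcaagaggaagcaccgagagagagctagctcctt
The forkhead core of the second Prox1 start begins at position -166 and the SOX core of Mmrn1 at -231, counted from the start. Neither motif was found in the windows of the first Prox1 start, Flt4 and Nts. Over all 32851 promoters of this length, 10.7% hold the SOX core and 13.4% the forkhead core, so a match is a description of the letters and not a binding site.

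Lymphatic-like barcodes made up 8.54% of endothelial barcodes in the Foxq1iECKO library (265 of 3102, exact binomial 95% interval 7.58 to 9.58%) and 8.17% in the Foxq1flox/flox library (299 of 3661, 7.30 to 9.10%). The intervals overlap, so a difference in share was not detectable at this depth. They cover counting error only, as do all intervals given here: with 1 library per genotype there is no replicate check, no test was possible, and genotype and library cannot be told apart. The share depends on depth, since members had a median of 11368 UMIs in the Foxq1iECKO library and 12652 in the Foxq1flox/flox library, against 5618 and 5374 in the other endothelial barcodes. After each barcode was thinned to 2000 UMIs, the same rule kept 69 of 2256 endothelial barcodes in the Foxq1iECKO library (3.06%) and 76 of 2797 in the Foxq1flox/flox library (2.72%), and 5 and 7 members were too shallow to thin. The C1q part of the rule removed 4 and 6 barcodes.

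Members did not all carry the same number of the 6 markers. In the Foxq1iECKO library 67 had 3 markers, 69 had 4, 104 had 5 and 25 had 6. In the Foxq1flox/flox library 99 had 3, 81 had 4, 107 had 5 and 12 had 6. Just outside the rule, 473 endothelial barcodes of the Foxq1iECKO library and 571 of the Foxq1flox/flox library had 2 markers. Prox1 stood at 332 and 436 CPM (a gene's UMIs scaled to 1000000 UMIs summed over the barcodes) just inside the threshold, at 3 markers, and at 105 and 112 CPM just outside it, in the Foxq1iECKO and Foxq1flox/flox libraries. The commonest combination was Prox1, Mmrn1, Reln, Pdpn and Ccl21a without Lyve1, in 103 members of the Foxq1iECKO library (38.9%) and 100 of the Foxq1flox/flox library (33.4%). The same set without Pdpn followed, in 37 and 43 members.

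**Figure D1:**
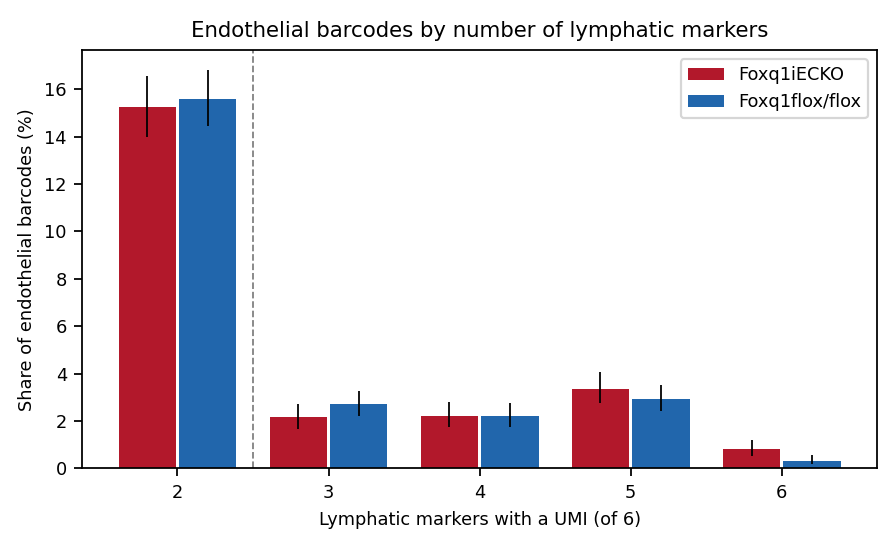
Share of endothelial barcodes (%) by the number of lymphatic markers with a UMI, for 2 to 6 markers, in the Foxq1iECKO (red) and Foxq1flox/flox (blue) libraries. Black lines are exact binomial 95% intervals and the dashed line is the threshold of the rule. At 2 markers the shares are 15.2% and 15.6%, at 6 markers 0.806% and 0.328%.

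The values of the 6 rule genes chose the members and are given as a description, with no test. Prox1 had a UMI in 254 of 265 members of the Foxq1iECKO library (95.9%) and 293 of 299 of the Foxq1flox/flox library (98.0%). Its level was 1207 CPM in members of the Foxq1iECKO library (exact Poisson 95% interval 1170 to 1246) and 1147 CPM in those of the Foxq1flox/flox library (1113 to 1183), against 34.9 and 40.9 CPM in the other endothelial barcodes. Mmrn1, a secreted multimerin of endothelium, stood at 1077 and 963 CPM in members, with a UMI in 98.9% and 100.0% of them, and was also present in the other endothelial barcodes at 246 and 267 CPM. Reln, the secreted glycoprotein reelin, which lymphatic endothelium releases to act on the muscle cells of collecting vessels, stood at 237 and 224 CPM against 6.06 and 6.87 CPM. Pdpn, a mucin-like surface protein that keeps blood and lymph apart by activating platelets, stood at 131 and 100 CPM against 4.53 and 3.62 CPM.

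Ccl21a, the chemokine that draws dendritic cells into lymphatics, stood at 249 CPM in members of the Foxq1iECKO library and 172 CPM in those of the Foxq1flox/flox library, while the other endothelial barcodes had 0.191 and 0.488 CPM. Mice carry near-identical copies of this gene, and the symbol belongs to 2 identifiers of which only ENSMUSG00000094686 had UMIs, so reads of the copies may have been split or joined. Lyve1, the hyaluronan receptor used to stain lymphatics, was the least detected of the 6. It had a UMI in 46 members of the Foxq1iECKO library (17.4%) and 47 of the Foxq1flox/flox library (15.7%), at 26.8 and 21.6 CPM. Barcodes gated on fibroblast markers, which should lack Lyve1, had 51.5 and 9.65 CPM, and macrophage-gated ones, which may carry it, 547 and 339 CPM. At 2000 UMIs per barcode, 3.85% and 5.48% of members had a Lyve1 UMI, against 2.05% and 0.616% of fibroblast-gated barcodes. Before thinning, 134 of 4475 and 47 of 4485 fibroblast-gated barcodes had a Lyve1 UMI. The largest counts in a barcode were 55 and 28 UMIs there, and 22 and 11 in members. The fibroblast gate did not leave out barcodes with macrophage markers, so its level does not measure free RNA. The part of other cells or free RNA in the Lyve1 level of members was not tested.

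Genes that the rule did not use describe the label further. Of 22 measured lymphatic surface and secreted genes (10 or more CPM in members or other endothelial barcodes), 11 were higher in members by at least 1.5-fold in both libraries with the counting interval of each ratio above 1, and 4 were lower. Over all 8759 genes measured, 7.49% were higher by that rule and 12.6% lower. The rule chose these barcodes by their own transcripts, so the contrast is a description and nothing is read from those shares. Nrp2 stood at 1022 CPM in members of both libraries, against 232 and 254 CPM in the other endothelial barcodes of the Foxq1iECKO and Foxq1flox/flox libraries. Flt4 stood at 270 and 252 CPM in members, against 60.9 and 72.6 CPM. Nts, the precursor of the peptide neurotensin, stood at 585 and 616 CPM, against 25.5 and 32.4 CPM. All 3 were above every other endothelial group in both libraries, the nearest for Nrp2 being barcodes with Plvap and Emcn and fewer than 3 barrier markers, at 405 and 395 CPM.

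Among the transcription factors of the lineage, 3 of 13 were higher in members in both libraries and 4 were lower, beside 7.49% and 12.6% of all genes. Nfatc1, needed for lymphatic maturation and valves in mouse, stood at 245 and 262 CPM in members against 92.6 and 108 CPM in the other endothelial barcodes. Maf stood at 180 and 181 CPM against 67.1 and 61.7 CPM, and Tbx1, which in mouse promotes Flt4 expression, at 35.1 and 29.2 CPM against 8.11 and 8.86 CPM. The upstream factors were not high in members. Sox18 stood at 119 and 132 CPM in members against 160 and 206 CPM, and Nr2f2 at 360 and 305 CPM against 268 and 236 CPM, a ratio under 1.5-fold in both libraries. Foxc2, a forkhead factor of lymphatic valves, stood at 19.1 and 17.8 CPM against 50.8 and 49.9 CPM.

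Of the 9 measured genes of VEGF-C signalling, Flt4, Nrp2 and Itga9 (the integrin chain of valve formation) were higher in members in both libraries, and 1 was lower. That gene was the ligand Vegfc, at 8.01 and 10.5 CPM in members against 21.4 and 27.2 CPM in the other endothelial barcodes. Itga9 stood at 154 and 171 CPM against 61.5 and 66.3 CPM. Surface and secreted genes with large ratios were Klhl4, a kelch-like protein whose role in these cells is not described here, at 444 and 441 CPM against 91.9 and 103 CPM, Sema3d, a secreted semaphorin, at 112 and 109 CPM against 8.83 and 10.9 CPM, and Thy1 (CD90), a surface glycoprotein, at 49.3 and 49.1 CPM against 1.19 and 1.22 CPM. Angpt2, the angiopoietin needed for lymphatic growth in mouse, stood at 370 and 338 CPM against 143 and 151 CPM. Cldn11 and Stab2, which mark lymphatic endothelium elsewhere, were under 10 CPM in members of both libraries. Celsr1, a planar polarity cadherin of lymphatic valves, stood at 101 and 96.4 CPM against 18.9 and 15.8 CPM. It was 1 of 2 genes higher in members among 16 measured valve and polarity genes, with 5 lower. Over all genes measured, 7.49% were higher and 12.6% lower by the same rule.

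**Figure D2:**
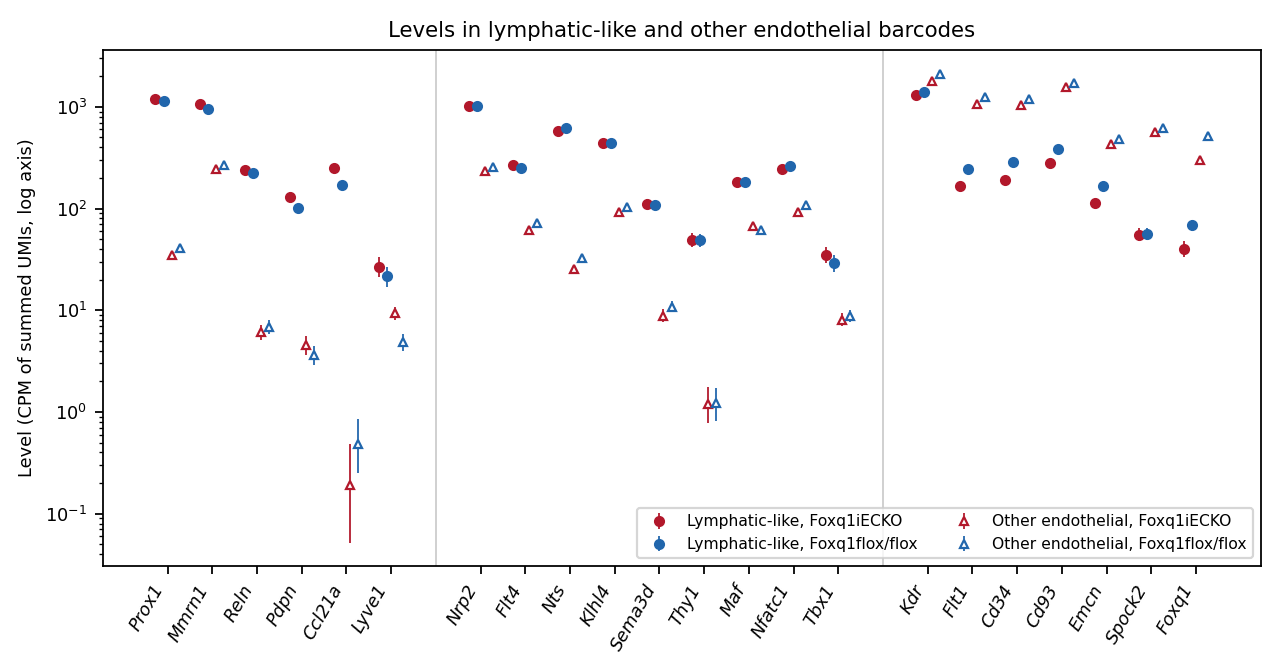
Level (CPM of summed UMIs, log axis) in lymphatic-like barcodes (filled circles) and other endothelial barcodes (open triangles) of the Foxq1iECKO (red) and Foxq1flox/flox (blue) libraries, with exact Poisson 95% intervals. From left to right the panels hold the 6 rule genes, lymphatic genes outside the rule, and genes of blood and barrier endothelium with Foxq1. Thy1 is near 49 CPM in lymphatic-like barcodes of both libraries and near 1.2 CPM in the other endothelial barcodes.

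Genes outside the rule were ranked by the interval limit nearest to 0, among those at 50 or more CPM in members of both libraries, and the first of the 15 named was Tc2n, which encodes a protein with C2 domains. It stood at 67.8 and 54.5 CPM in members against 0.811 and 1.10 CPM in the other endothelial barcodes, log2 ratios of 6.38 in the Foxq1iECKO library and 5.64 in the Foxq1flox/flox library. Scn3a, a voltage-gated sodium channel, stood at 253 and 250 CPM against 7.16 and 12.4 CPM, log2 ratios of 5.14 and 4.33. Pcsk6, a proprotein convertase, stood at 252 and 229 CPM against 10.9 and 14.9 CPM, log2 ratios of 4.53 and 3.94. Several of the 15 are best known from neurons, among them Gap43, a growth cone protein, at 1185 and 1209 CPM against 124 and 145 CPM. The 12 neuron markers, Gap43 among them, summed to 1672 and 1705 CPM in members against 593 and 606 CPM in the other endothelial barcodes, and to 1822 and 1819 CPM in members with 5 or 6 markers. Of 7 measured, Gap43 and Elavl4 were higher in both libraries and Tubb3 and Stmn2 lower, beside 7.49% and 12.6% of all genes. Elavl4, an RNA-binding protein of neurons, stood at 35.1 and 35.9 CPM against 17.4 and 17.6 CPM. Tubb3 stood at 12.3 and 15.1 CPM in members against 18.8 and 23.4 CPM and Stmn2 at 3.39 and 11.6 CPM against 18.4 and 24.1 CPM. Gap43 stood at 1395 and 1404 CPM in members with 5 or 6 markers, where Tubb3 stood at 6.0 and 2.25 CPM. The 8 markers of Cajal-Retzius cells, neurons that make reelin, summed to 155 and 135 CPM in members against 75.9 and 93.6 CPM, and to 163 and 142 CPM in members with 5 or 6 markers. Of these, the transcription factor gene Ebf3 was higher in both libraries, at 146 and 127 CPM against 55.3 and 73.0 CPM, and Trp73 had 6 and 1 UMIs in all members. The part of neurons in these values was not tested.

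The remaining genes of the 15 were Nts, Pld5, Sema3d, Cxadr, Hivep3, Tmod2, Pla2g1b, Ephb1, Tbc1d4, Sgk3 and Meis2. Cxadr, a cell adhesion receptor, stood at 176 and 153 CPM in members against 18.4 and 17.1 CPM, though it overlaps Btg3 on the other strand, and the labels do not state whether counting used strand. Meis2, a homeobox factor, was the last of the 15, at 299 and 288 CPM against 45.1 and 47.4 CPM. Of 11 measured genes of fatty acid use, on which lymphatic growth depends in mouse, 2 were higher and 2 lower. Over all genes measured, 7.49% were higher and 12.6% lower, so nothing is read from this count. Fabp5, a fatty acid binding protein, stood at 208 and 218 CPM against 95.4 and 86.8 CPM, and Pparg, a nuclear receptor for fatty acids, at 15.1 and 10.5 CPM against 2.77 and 2.44 CPM. Of the reelin receptors, Vldlr stood at 60.1 and 44.5 CPM against 17.8 and 15.9 CPM.

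Genes of blood and barrier endothelium stood low in members. Of 16 measured blood endothelial genes none was higher in both libraries and 14 were lower, with a median log2 ratio of -1.97 in the Foxq1iECKO library and -1.94 in the Foxq1flox/flox library, beside 0.03 and 0.02 over all genes. For this and the lists below, 7.49% of all genes measured were higher and 12.6% lower. Cd34, a sialomucin of blood vessel endothelium, stood at 190 and 289 CPM in members against 1034 and 1191 CPM in the other endothelial barcodes. Flt1, the VEGF-A receptor VEGFR-1 and a gene of the endothelial rule, stood at 165 and 246 CPM against 1061 and 1250 CPM, while Kdr (VEGFR-2) stood at 1299 and 1402 CPM against 1797 and 2106 CPM. Of 28 measured blood-brain barrier genes 25 were lower and 1 higher, the lactate transporter Slc16a1, at 94.2 and 87.7 CPM against 33.5 and 34.7 CPM. Spock2, a proteoglycan of brain endothelium, had the lowest ratio by the ranking used, at 55.4 and 56.1 CPM against 560 and 616 CPM. Of 13 arterial genes 10 were lower and 1 was higher, the netrin receptor Unc5b, at 169 and 192 CPM against 58.9 and 65.0 CPM. Of 12 vascular basement membrane genes 7 were lower and 1 was higher, Fbn1, the microfibril protein fibrillin-1, at 100 and 102 CPM against 26.3 and 21.6 CPM.

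The members were not uniform in these genes. By the number of lymphatic markers, which the rule genes set, levels in members with 3 markers differed from those in the rest in both libraries. Nts stood at 147 and 310 CPM in members with 3 markers, at 618 and 692 CPM with 4, and at 708 and 756 CPM with 5 or 6, in the Foxq1iECKO and Foxq1flox/flox libraries. Flt4 stood at 97.4 and 150 CPM with 3, at 260 and 280 CPM with 4, and at 325 and 296 CPM with 5 or 6. The steps from 3 to 4 markers lay outside the Poisson intervals for both genes. Those intervals hold no variation between barcodes, so the steps are a description and no test of separate groups.

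Genes of blood endothelium ran the other way. Flt1 stood at 729 and 755 CPM in members with 3 markers, at 65.4 and 76.1 CPM with 4, and at 26.0 and 36.5 CPM with 5 or 6. Cd34 stood at 620 and 679 CPM with 3, at 165 and 185 CPM with 4, and at 68.0 and 115 CPM with 5 or 6. Kdr differed less, at 1447 and 1590 CPM with 3 markers and 1252 and 1367 CPM with 5 or 6. Slco1c1, a thyroid hormone transporter of barrier endothelium, had 61.1 and 56.2 CPM in members with 3 markers and 0.0 and 6.74 CPM in those with 5 or 6.

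Doublet calls and barrier markers moved with the marker number. Scrublet, which scores barcodes against simulated pairs of cells, called 14.9% and 15.2% of members with 3 markers as doublets, 7.25% and 3.70% of those with 4, and 1.55% and 2.52% of those with 5 or 6. Over all members it called 17 of 265 (6.42%) and 21 of 299 (7.02%), and they were kept. At least 3 of 8 barrier markers (Slc2a1, Spock2, Apod, Mfsd2a, Foxf2, Lef1, Apcdd1, Slco1c1) had a UMI in 32 and 35 members, of which 25 and 22 had 3 lymphatic markers. The part of doublets in the levels of these members was not tested.

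**Figure D3:**
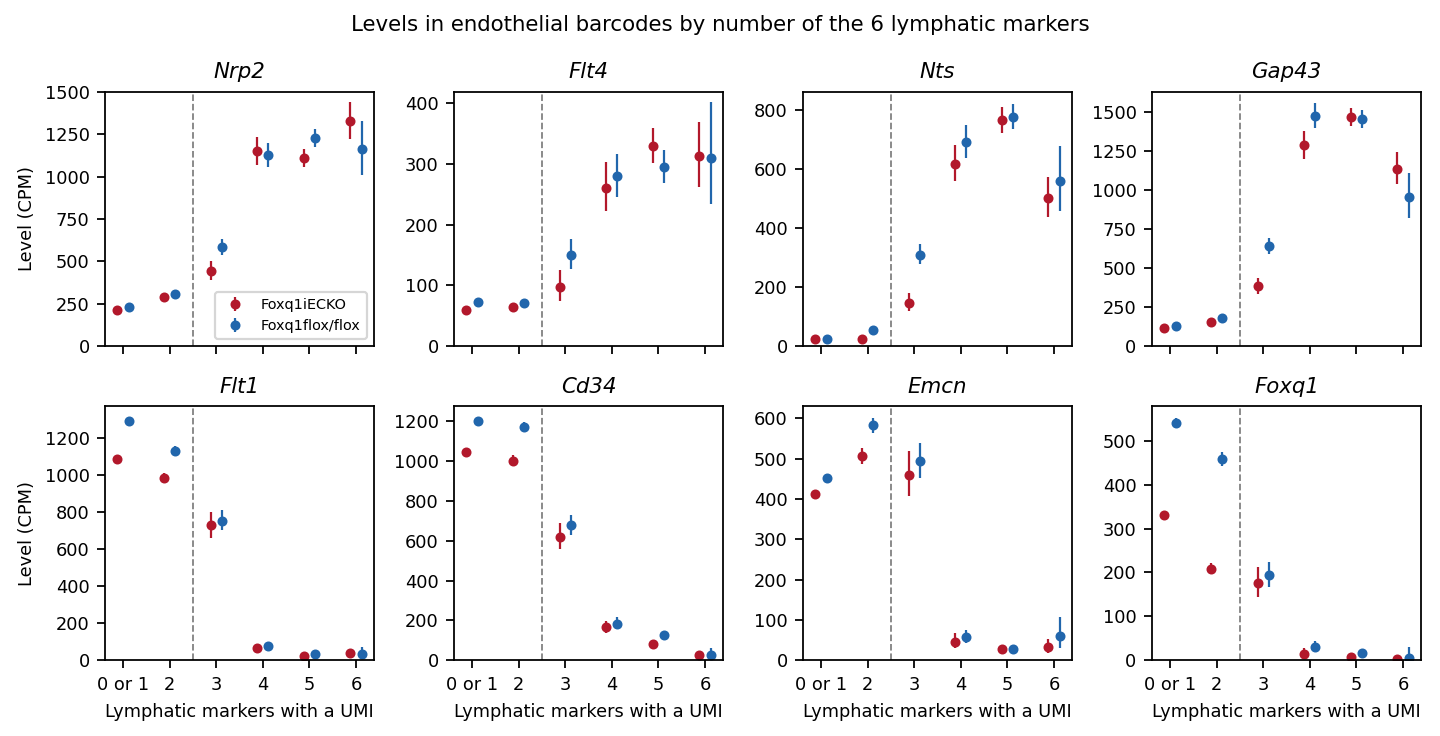
Level (CPM of summed UMIs) of 8 genes in endothelial barcodes by the number of the 6 lymphatic markers with a UMI, in the Foxq1iECKO (red) and Foxq1flox/flox (blue) libraries, with exact Poisson 95% intervals. The dashed line is the threshold of the rule. Nrp2, Flt4, Nts and Gap43 step up between 3 and 4 markers, and Flt1, Cd34, Emcn and Foxq1 step down.

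Foxq1, the targeted gene, was read first in the comparison of genotypes. In members it had 131 UMIs in the Foxq1iECKO library, 40.3 CPM (33.7 to 47.9), and 253 UMIs in the Foxq1flox/flox library, 68.3 CPM (60.1 to 77.2). Its log2 ratio was -0.76 (-1.07 to -0.45), beside -0.79 (-0.83 to -0.74) in the other endothelial barcodes, where it stood at 301 and 518 CPM. The direction is that of the labels, but UMIs at the 3′ end need not lie in the deleted part, so the level does not measure the share of deleted alleles.

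Most of the Foxq1 UMIs of members lay in barcodes with 3 markers, 107 of 131 (81.7%) in the Foxq1iECKO library and 200 of 253 (79.1%) in the Foxq1flox/flox library. There Foxq1 stood at 177 and 194 CPM, a log2 ratio of -0.14 (-0.49 to 0.21). Members with 4 markers had 15.6 and 30.2 CPM, a log2 ratio of -0.96 (-2.17 to 0.14). Those with 5 or 6 had 7.0 and 14.6 CPM from 14 and 26 UMIs, a log2 ratio of -1.06 (-2.11 to -0.07). Fibroblast-gated barcodes, which lie outside the endothelial gate, had 23.5 and 22 CPM, and neuron-gated ones 6.67 and 9.95 CPM. No expression is therefore read from the Foxq1 level in members with 5 or 6 markers, and the part of background in it was not tested. After thinning, 5.77% and 7.88% of members had a Foxq1 UMI, against 3.29% and 2.84% of fibroblast-gated barcodes and 29.2% and 41.0% of the other endothelial barcodes, whose median depths before thinning were 11368 and 12652, 4170 and 4476, and 5618 and 5374 UMIs. Members with 3 markers were 67 of 265 in the Foxq1iECKO library and 99 of 299 in the Foxq1flox/flox library. With the marker numbers weighted equally in both libraries the Foxq1 log2 ratio was -0.26 (-0.57 to 0.04), no longer past 1.5-fold.

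The lymphatic transcription factors and the VEGF-C genes of the members were set side by side in the 2 genotypes. None of the 13 measured lymphatic transcription factors and none of the 9 measured genes of VEGF-C signalling differed by 1.5-fold with the interval off 0, at medians of 0.01 and -0.15 on the log2 scale, beside -0.02 over all 8192 genes at 10 or more CPM in either library. Over all those genes, 2.05% were higher in the Foxq1iECKO library by that rule and 2.28% lower. At such shares, the lack of a call in lists this short is no evidence of likeness. Nrp2 had a log2 ratio of 0.00 (-0.07 to 0.07), Flt4 of 0.10 (-0.03 to 0.24), Nts of -0.07 (-0.16 to 0.01) and Klhl4 of 0.01 (-0.09 to 0.11). The rule genes chose the members in both libraries, so their closeness is a description and no evidence of likeness between genotypes. Of the rule genes, Prox1 had 0.07 (0.01 to 0.14), Mmrn1 0.16 (0.09 to 0.23) and Reln 0.08 (-0.06 to 0.22). Each of these intervals lies inside 1.5-fold, which is 0.585 on the log2 scale, in either direction. The 6 measured lymphatic chemokine and sphingosine genes had a median of -0.38, with none past 1.5-fold in either direction. The medians of their lower and upper counting limits were -0.77 and 0.04, so the range includes 0. In members with 5 or 6 markers, a part of the same barcodes, the median was -0.49. The summed level of these genes was 599 CPM in members of the Foxq1iECKO library and 655 CPM in those of the Foxq1flox/flox library. Among them Spns2, a transporter of sphingosine-1-phosphate, stood at 49.0 and 70.2 CPM, a log2 ratio of -0.52 (-0.81 to -0.23).

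The rule genes Ccl21a and Pdpn stood higher in the Foxq1iECKO library without reaching 1.5-fold. Both helped to choose the members and to set their marker number, so their values are a description. Ccl21a had a log2 ratio of 0.53 (0.38 to 0.68) and a UMI in 188 of 265 members of the Foxq1iECKO library (70.9%) and 183 of 299 of the Foxq1flox/flox library (61.2%). It did not hold its direction across marker numbers: members with 3 markers had 14.9 and 34.9 CPM, those with 4 had 257 and 144 CPM, and those with 5 or 6 had 317 and 266 CPM, a log2 ratio of 0.26 in the last. Pdpn had a log2 ratio of 0.38 (0.18 to 0.59) over all members and of 0.14 in those with 5 or 6 markers. Of 20 measured lymphatic surface and secreted genes, 2 were higher in the Foxq1iECKO library, Ptn, a heparin-binding growth factor, at 32.3 and 16.7 CPM, and Ptprz1, its receptor phosphatase, at 20.6 and 4.05 CPM. Ptprz1 had 67 UMIs in 23 members and 15 UMIs in 11 members, and its largest barcode held 31.3% and 13.3% of them. Without the largest barcode of each library its log2 ratio was 2.02 (1.10 to 3.03). It is also a radial glia marker, and the radial glia marker Fabp7 moved with it, at 56.4 and 7.83 CPM in all members and at 282 and 22.3 CPM in those with 3 markers. Of 15 valve and polarity genes 1 was lower, the BMP receptor Acvrl1, at 10.8 and 16.7 CPM.

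**Figure D4:**
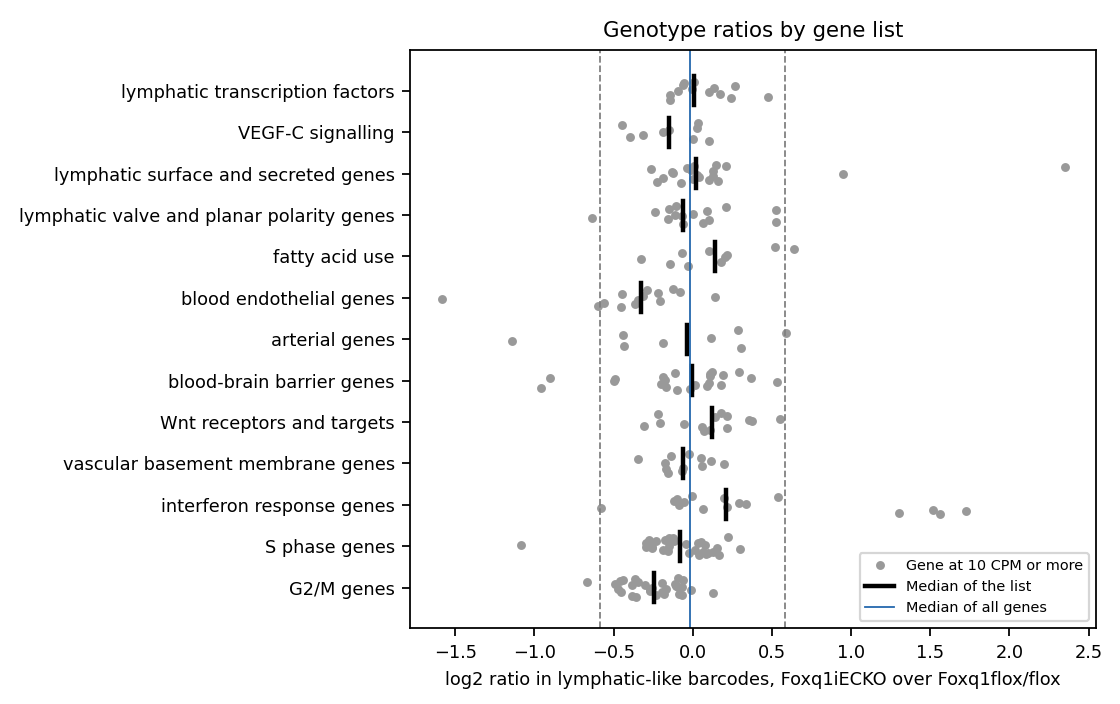
Log2 ratio of the Foxq1iECKO over the Foxq1flox/flox library in lymphatic-like barcodes for the genes of 13 lists, each point 1 gene at 10 or more CPM, with the median of each list (black) and of all genes (blue line). Dashed lines mark 1.5-fold. The medians of the 4 lymphatic lists drawn lie between -0.15 and 0.02, that of the blood endothelial genes at -0.33.

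Among genes at 50 or more CPM in either library, 12 of 3957 (0.303%) were higher in the Foxq1iECKO library by 1.5-fold with the interval off 0, and 23 (0.581%) were lower. Of the 12 higher, Cmss1, Tex14, Cbfa2t3, Meox1 and Nog met the naming rule. Cmss1, a protein of the small ribosomal subunit machinery, stood at 112 CPM in members of the Foxq1iECKO library and 56.7 CPM in those of the Foxq1flox/flox library, a log2 ratio of 0.98 (0.73 to 1.24). It had 0.74 in the other endothelial barcodes, so the difference was not confined to members, and it overlaps Filip1l on the other strand, which stood at 125 and 164 CPM in members. Tex14, a protein of intercellular bridges in germ cells, stood at 51.7 and 30.8 CPM, a log2 ratio of 0.75 (0.40 to 1.11), beside 0.03 in the other endothelial barcodes.

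Meox1, a homeobox factor, stood at 54.5 and 33.5 CPM, 0.70 (0.36 to 1.05), beside -0.07 in the other endothelial barcodes. Nog, the secreted BMP antagonist noggin, stood at 78.2 and 51.3 CPM, 0.61 (0.33 to 0.89), beside 0.14. Cbfa2t3, a transcriptional corepressor, stood at 99.2 and 64.0 CPM, 0.63 (0.39 to 0.88), beside 0.15. In members with 5 or 6 markers all 5 were also above 0, Cmss1 at 1.17, Tex14 at 0.89, Cbfa2t3 at 0.73, Meox1 at 0.72 and Nog at 0.62. Those members held from 64.3% (Tex14) to 75.0% (Cmss1) of the genes' member UMIs in the Foxq1iECKO library, so their values are no separate check of the direction. Not every marker number had that direction: Tex14 had -0.17 with 4 markers and Nog -0.07 with 3. The differences between members and other endothelial barcodes were not tested.

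The other genes of the 12 were Fabp7, Rgs5, Ccl2, Ccl3, Ccl4, Olfm1 and Gm19951, named here after their values were seen. Rgs5, a pericyte marker, stood at 181 and 63.7 CPM in all members, at 833 and 173 CPM in those with 3 markers and at 11.5 and 6.18 CPM in those with 5 or 6. The 11 pericyte markers summed to 305 and 165 CPM in members, with 1 and 2 of them at 0, against 2577 and 1317 CPM in the other endothelial barcodes. The chemokine Ccl2 stood at 133 and 69.1 CPM in all members and at 72.0 and 49.5 CPM in those with 5 or 6 markers. Olfm1, a secreted olfactomedin, stood at 126 and 66.7 CPM in all members and at 142 and 74.7 CPM in those with 5 or 6 markers. The part of other cell types in these values was not tested.

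On the lower side, Cd34 had a log2 ratio of -0.60 (-0.75 to -0.46) and Asb4, a subunit of a ubiquitin ligase made in embryonic vessels, stood at 152 and 284 CPM, -0.90 (-1.06 to -0.75). Both are high in barcodes with 3 markers, which were 67 of 265 members in the Foxq1iECKO library and 99 of 299 in the Foxq1flox/flox library. Asb4 had 398 of its 493 member UMIs (80.7%) there in the Foxq1iECKO library and 945 of 1052 (89.8%) in the Foxq1flox/flox library, and its log2 ratio within members of 5 or 6 markers was -0.54 (-1.07 to -0.03). In members with 4 markers it stood at 59.2 and 36.9 CPM, 0.68 (-0.03 to 1.40), the opposite direction. Cd34 had -0.13 within members of 3 markers, -0.16 within those of 4 and -0.75 (-1.08 to -0.43) within those of 5 or 6. The 14 measured blood endothelial genes held 2 lower, Cd34 and Esm1, and none higher, at a median of -0.33. That median was -0.065 with the marker numbers weighted equally in both libraries. The part of marker number in these values was not tested.

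Lrch1, a protein with leucine-rich repeats, stood at 51.7 and 91.5 CPM, a log2 ratio of -0.82 (-1.10 to -0.55), and was below 0 at every marker number of the members, with -0.71 at 5 or 6. Ckap2, a spindle protein, stood at 56.4 and 89.6 CPM, -0.67 (-0.94 to -0.40), beside -0.06 in the other endothelial barcodes. Hspa8, a constitutive chaperone, stood at 281 and 407 CPM, -0.54 (-0.66 to -0.42), under 1.5-fold. Rgcc stood at 31.7 and 56.7 CPM over all members, but at 35.8 and 13.4 CPM in those with 4 markers, the opposite direction. Ppbp, a platelet chemokine, had the lowest ratio of the genes that met the naming rule, at 25.6 and 117 CPM, but all 433 of its UMIs in the Foxq1flox/flox library came from 1 barcode and 74 of its 83 UMIs in the Foxq1iECKO library from another, and without these the Foxq1flox/flox library had none.

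Blood cell transcripts differed between the libraries. The 9 erythroid markers found in the files summed to 9.55 CPM in members of the Foxq1iECKO library, with 4 at 0, and to 302 CPM in those of the Foxq1flox/flox library, with none at 0, against 282 and 428 CPM in the other endothelial barcodes. The 4 haemoglobin genes at 50 or more CPM were among the 23 lower genes. In the Foxq1flox/flox library Hbb-y had UMIs in 12 members and 164 of its 343 UMIs in 1 of them. Macrophage markers summed to 207 and 231 CPM in members and fibroblast markers to 543 and 426 CPM. The part of these cells in the differences of the members was not tested.

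**Figure D5:**
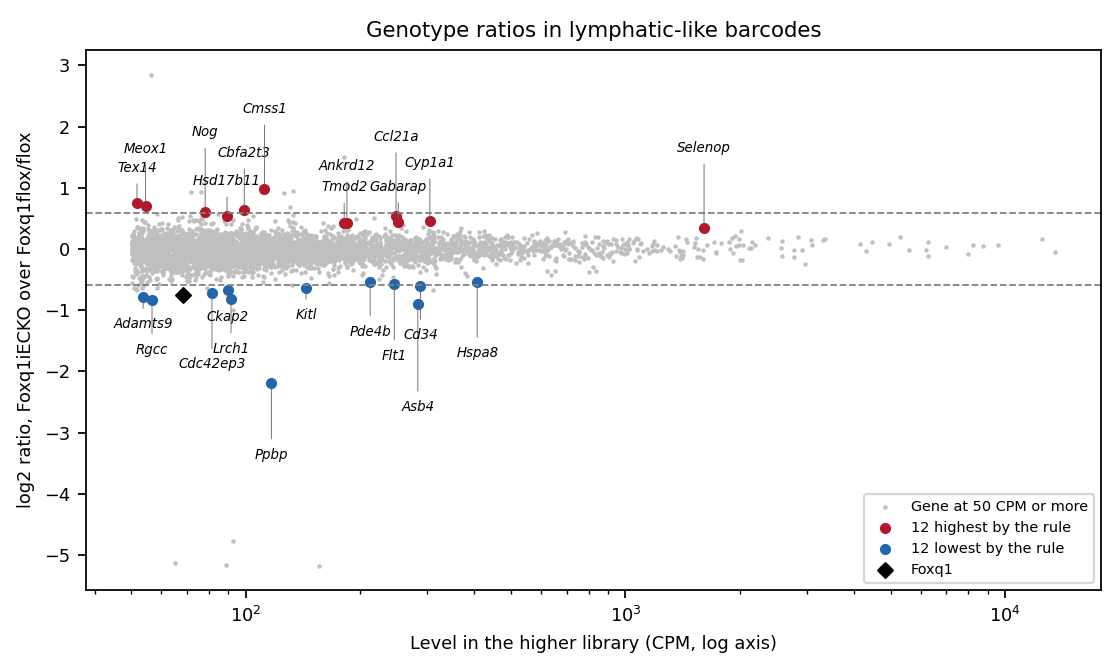
Log2 ratio of the Foxq1iECKO over the Foxq1flox/flox library in lymphatic-like barcodes against the level in the higher library (CPM, log axis), each grey point 1 gene at 50 or more CPM. Red and blue points are the 12 highest and 12 lowest genes by the naming rule, the diamond is Foxq1, and dashed lines mark 1.5-fold. Most genes lie inside the dashed lines, Cmss1 is the highest of the named genes at 0.98, and Ppbp, from single barcodes, the lowest at -2.19.

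Of 30 S phase genes 8, and of 30 G2/M genes 4, were higher in members than in the other endothelial barcodes by 1.5-fold in both libraries and none was lower, beside 7.49% of all genes higher by that rule. Top2a, the DNA topoisomerase of dividing cells, stood at 613 and 800 CPM in members against 432 and 489 CPM, and Mki67, a proliferation antigen, at 508 and 652 CPM against 448 and 456 CPM, neither past 1.5-fold in both libraries. Between genotypes the G2/M genes of members had a median log2 ratio of -0.24, beside -0.01 in the other endothelial barcodes, with 1 of 30 past 1.5-fold (Ckap2, lower). Top2a had -0.38 (-0.47 to -0.30) and Mki67 -0.36 (-0.45 to -0.27), both under 1.5-fold, and Mki67 had a UMI in 220 of 265 and 251 of 299 members. S phase genes had a median of -0.08, with 1 of 30 lower, Rpa2.

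Of 16 measured interferon response genes, 4 were higher in members of the Foxq1iECKO library and none lower, at a median of 0.21, and the same number were higher in the other endothelial barcodes, at a median of 0.35. Over all genes, 2.05% were higher in members and 1.46% in the other endothelial barcodes. Ifit1, an interferon-induced RNA-binding protein, stood at 23.1 and 7.83 CPM with UMIs in 14 and 11 members. Its largest barcode held 33.3% and 31.0% of these UMIs. Rsad2 (viperin) stood at 47.1 and 16.5 CPM, a log2 ratio of 1.52, with 60.1% of its UMIs in the Foxq1iECKO library in 1 barcode, and without the largest barcode of each library the ratio was 0.76. Genes of the Wnt pathway, through which the brain instructs its blood vessels, held none of 14 past 1.5-fold, at a median of 0.12. Blood-brain barrier genes held 2 of 22 lower, Apod at 7.08 and 13.8 CPM and Slco1c1 at 11.7 and 21.9 CPM, at a median of 0.00. Over all genes 2.28% were lower. By the levels given above, Slco1c1 was not lower in members with 3 markers, which were 67 of 265 and 99 of 299 members. The part of marker number in its ratio was not tested. Basement membrane genes held none of 12 and genes of fatty acid use none of 10 past 1.5-fold, at medians of -0.06 and 0.14.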

How the data were processed

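Both libraries were made with barcoded beads in microwells, which tag the 3′ end of each polyadenylated transcript with a UMI, per the labels' protocols. The deposited values were counts, whole UMIs per gene and barcode with no normalization, 72445925 in the Foxq1iECKO library (15108 barcodes) and 76580165 in the Foxq1flox/flox library (15837 barcodes). The tools listed in the submitters' processing notes are STARsolo 2.7.11b and fastp 0.24.0, with the build mm10, and their settings are not stated. Deposited barcodes were filtered and gated as stated in the report. The members, gene lists and naming rule were chosen with earlier results of these data known.

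UMIs of the members, 3247006 in the Foxq1iECKO library and 3704801 in the Foxq1flox/flox library, were summed per library and scaled to CPM. Levels have exact Poisson, shares Clopper-Pearson and ratios exact conditional binomial intervals, all at 95%. Log2 ratios are Foxq1iECKO over Foxq1flox/flox, or members over other endothelial barcodes. A gene was higher or lower by size at 1.5-fold with the interval off 0, and this step was tested on simulated data. It called 1.03% of unchanged genes, 47.8% of genes changed 1.5-fold and 97.0% of genes changed 2.0-fold. The simulated counts were Poisson draws, as the interval assumes, and held no variation between barcodes, so they do not check calls that rest on few barcodes. Named genes were the rule genes, list genes, the 12 highest and 12 lowest between genotypes and the 15 highest and 10 lowest between members and other endothelial barcodes, by the interval limit nearest to 0 at 50 or more CPM. Mitochondrial, ribosomal protein, haemoglobin, sex-linked and predicted genes were left out, as were genes over 5 times higher in barcodes of other classes. Class gates needed 4 markers and fewer than 3 endothelial ones. Doublets were called with Scrublet in scanpy 1.11.5 at an expected 8% and kept. Scaling alternatives used edgeR 4.0.16 (TMM) and DESeq2 1.42.0 (median of ratios), with R 4.3.3, Python 3.11.15, numpy 2.4.6, scipy 1.17.1 and pandas 2.3.3. The libraries shared 270 barcodes, beside 270.4 expected of random draws, and no member of one library had its barcode among the members of the other.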

Additional observations from a re-analysis of the deposited data

Results flagged for a closer look

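Actc1, a cardiac and skeletal muscle actin, had 1 UMI in members of the Foxq1iECKO library and 54 UMIs in members of the Foxq1flox/flox library, a log2 ratio of -5.56, beside 1.07 in the other endothelial barcodes, and the opposite directions brought it here. Its 54 UMIs came from 3 barcodes. The difference between members and other endothelial barcodes was not tested.

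Lymphatic markers also appeared outside the endothelial gate. Barcodes there were used only for the levels of class-gated barcodes and for the exclusions of the naming rule. At least 3 of the 6 markers had a UMI in 88 of 9940 such barcodes of the Foxq1iECKO library (0.885%, 0.711 to 1.09%) and 38 of 10207 of the Foxq1flox/flox library (0.372%, 0.264 to 0.511%). Of these 34 and 22 had 2 endothelial markers, just under the threshold, and 34 and 11 passed the radial glia gate. The neuron gate was passed by 28 and 10, the fibroblast gate by 26 and 6, and the macrophage gate by 15 and 2. The gates could overlap. A Ccl21a UMI was present in 24 of 88 and 10 of 38.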

How the results depend on the processing

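The share of lymphatic-like barcodes, given as a log2 ratio between libraries, moved by less than its counting error in 9 of 10 alternatives and came to 0.36 with at least 5 markers, where it was 4.16% and 3.25% of endothelial barcodes. That setting and the one that left out the barcode with most UMIs of a gene were chosen after seeing the data. The 12 genes higher by size became 23 with at least 5 markers, 27 with marker numbers weighted equally, 349 with no filter on low genes and 67 at 20 CPM. The 23 lower became 9 with 2 or more of Prox1, Lyve1, Mmrn1 and Ccl21a required in place of the 6, 371 with no filter and 88 at 20 CPM. Foxq1 had log2 ratios of -1.13 with at least 4 markers, -1.21 with the 4-gene rule and -0.26 with equal weighting. Of 243 list medians recomputed 231 stayed between the medians of the lower and of the upper counting limits of the list's genes. With at least 4 markers the neuron markers had -0.98 and platelet markers -3.68, and with at least 5 markers venous genes had -0.60, macrophage markers 0.79, fibroblast markers -0.66, neuron markers 0.25 and platelet markers 1.42. Equal weighting gave -0.065 for blood endothelial genes, 0.27 for barrier genes and 0.74 for fibroblast markers. Requiring a Prox1 UMI gave -0.34 for fibroblast markers, and the 4-gene rule -1.03 for erythroid markers. Of 250 values of named genes 208 stayed within counting error, 38 moved and 4 changed sign: Ppbp came to 3.92 with at least 5 markers and 4.44 without its largest barcodes, both with a prior of 0.5 UMIs for a library at 0 and so no bound, and Cdc42ep3 to 0.22 with at least 4 and 0.24 with at least 5 markers. Of 150 ratios of named genes between members and other endothelial barcodes 83 stayed within counting error and 67 moved, none to the other sign. The causes were not tested. No paired analysis was possible because there was 1 library per genotype. Depth limits the least abundant members' genes: with 131 and 253 Foxq1 UMIs, 79.1 to 81.7% of them in members with 3 markers, the ratio in the other members rests on few molecules.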
